A study of Rattus norvegicus with 16 samples.

Results

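Semaphorins, plexins and neuropilins are a family of guidance cues and their receptors, described here in the frontal cortex of rats. The members were chosen by gene symbol, as Sema3a to Sema7a, the plexins of types A to D, and Nrp1 and Nrp2. Of the 17001 gene symbols in the deposited table, 26 met that rule: 19 semaphorins, 5 plexins and 2 neuropilins. Sema6a, Plxna1, Plxna4, Plxnb1 and the type C plexin Plxnc1 are not among them, so no type C plexin is described. Each stands for 1 locus, all 26 passed the filter on low values (a mean of at least 1 FPKM over 16 libraries) and were tested, and the locus of Plxnb2 is shared with the microRNA gene Mir349. FPKM counts fragments scaled to transcript length and to the size of the library, so that levels can be compared between genes.

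Poly-A RNA was sequenced from male Sprague Dawley rats in 4 groups of 4 libraries. The chow group ate a chow diet for 7 weeks from an age of 11 weeks. The HF group ate a high fat diet for the same time with no injection, and the HF_PBS group ate that diet and was injected with the saline vehicle PBS into the abdomen for 10 days. The HF_5AzaD group ate the high fat diet and for 10 days received 5-AzaD, the nucleoside 5-aza-2′-deoxycytidine, which blocks DNA methyltransferases; it was given in PBS. Both injected groups thus share the high fat diet and the vehicle, and libraries are named below by group and by the number in their title. Whether each library of a group is a different animal is not stated in the labels. The p-values therefore reflect the scatter of these libraries, which may be technical. The letters HFD mean the diet alone in the design text and the PBS animals in the titles; groups follow the stated treatment, and if the names were exchanged, the comparison of HF with chow would hold what HF_PBS against chow shows.

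Semaphorins carry a sema domain and steer growing axons, dendrites and vessels, and in the adult cortex they also act on spines and synapses. Class 3 semaphorins are secreted and bind neuropilins, which hold the ligand while a plexin carries the signal into the cell, where its GTPase-activating domain and other effectors act on the cytoskeleton. Classes 4 to 6 span the membrane and bind plexins directly, and Sema7A is tied to the membrane by a lipid anchor and also binds integrins.

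The upstream sequences of 3 members are shown. Sema7a had the largest difference of the members between injected and uninjected libraries, and Plxnd1 their lowest p for drug against vehicle. Sema6b was lower in injected libraries, and its annotated upstream run holds few CG pairs. CG pairs, the sites that DNA methyltransferases act on, are in capitals. Each run is the 250 bases before the start site in RefSeq, build GRCr8, 5′ to 3′ on the gene's strand. DNA methylation was not analysed here.
Sema7a, chr8:67244068-67244317, plus strand: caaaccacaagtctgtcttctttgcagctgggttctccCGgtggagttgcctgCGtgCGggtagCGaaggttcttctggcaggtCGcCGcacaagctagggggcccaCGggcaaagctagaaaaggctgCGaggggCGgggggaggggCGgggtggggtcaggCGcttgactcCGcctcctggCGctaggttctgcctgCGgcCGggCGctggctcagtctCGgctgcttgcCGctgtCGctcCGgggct
Plxnd1, chr4:150715188-150715437, minus strand: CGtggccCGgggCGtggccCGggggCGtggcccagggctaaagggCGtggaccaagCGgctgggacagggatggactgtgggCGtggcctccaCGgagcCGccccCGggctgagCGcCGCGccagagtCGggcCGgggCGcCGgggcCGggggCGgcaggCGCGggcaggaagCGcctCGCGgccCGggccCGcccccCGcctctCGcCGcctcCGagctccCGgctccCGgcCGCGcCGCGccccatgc
Sema6b, chr9:1047743-1047992, minus strand: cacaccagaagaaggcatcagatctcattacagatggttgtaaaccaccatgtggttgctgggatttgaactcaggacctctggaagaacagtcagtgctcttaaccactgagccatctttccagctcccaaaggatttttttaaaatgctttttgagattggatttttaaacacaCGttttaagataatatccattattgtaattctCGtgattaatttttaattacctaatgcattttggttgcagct

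These runs hold 20 CG pairs for Sema7a, 37 for Plxnd1 and 2 for Sema6b. RefSeq windows of 300 bases (250 before the start site and 50 after) were matched by symbol for 20 of the 26 members. They held a median of 16 CG pairs, from 1 in Sema3c to 48 in Plxnd1, against a median of 7 over all 33469 windows of the table. Members with called differences lay across that range: Plxna2 had 24 pairs, Plxna3 19, Sema5b 20, Sema4c 15, Sema4f 15, Sema7a 28 and Sema6b 3.

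Levels in chow cortex set the scale. Sema7a, the lipid-anchored semaphorin, was highest at 174 ± 29.0 FPKM (mean ± SD, n = 4 libraries here and below). Next came the transmembrane semaphorins Sema6b, a class 6 ligand of A plexins, at 39.3 ± 2.69, and Sema4f, at 23.4 ± 1.40, and the receptor Plxna2 at 20.8 ± 1.38. Sema4d, known for its expression in oligodendrocytes, was at 15.1 ± 1.83, Sema6d at 13.7 ± 0.956, and Plxnd1, the receptor that binds Sema3E without a neuropilin, at 13.6 ± 1.63. The secreted Sema3c, Sema3a, Sema3f, Sema3g and Sema3e had means of 7.28, 6.72, 6.38, 6.02 and 4.57, while Sema3b and Sema3d were at 2.64 and 2.66. Some transmembrane semaphorins lay in the same range: Sema4c, Sema4b, Sema6c, Sema4g and Sema5b were at 5.76, 4.86, 4.16, 3.92 and 3.83. Of the neuropilins, Nrp1 was at 4.67 ± 0.841 and Nrp2 at 1.99 ± 0.380 in chow.

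**Figure D1:**
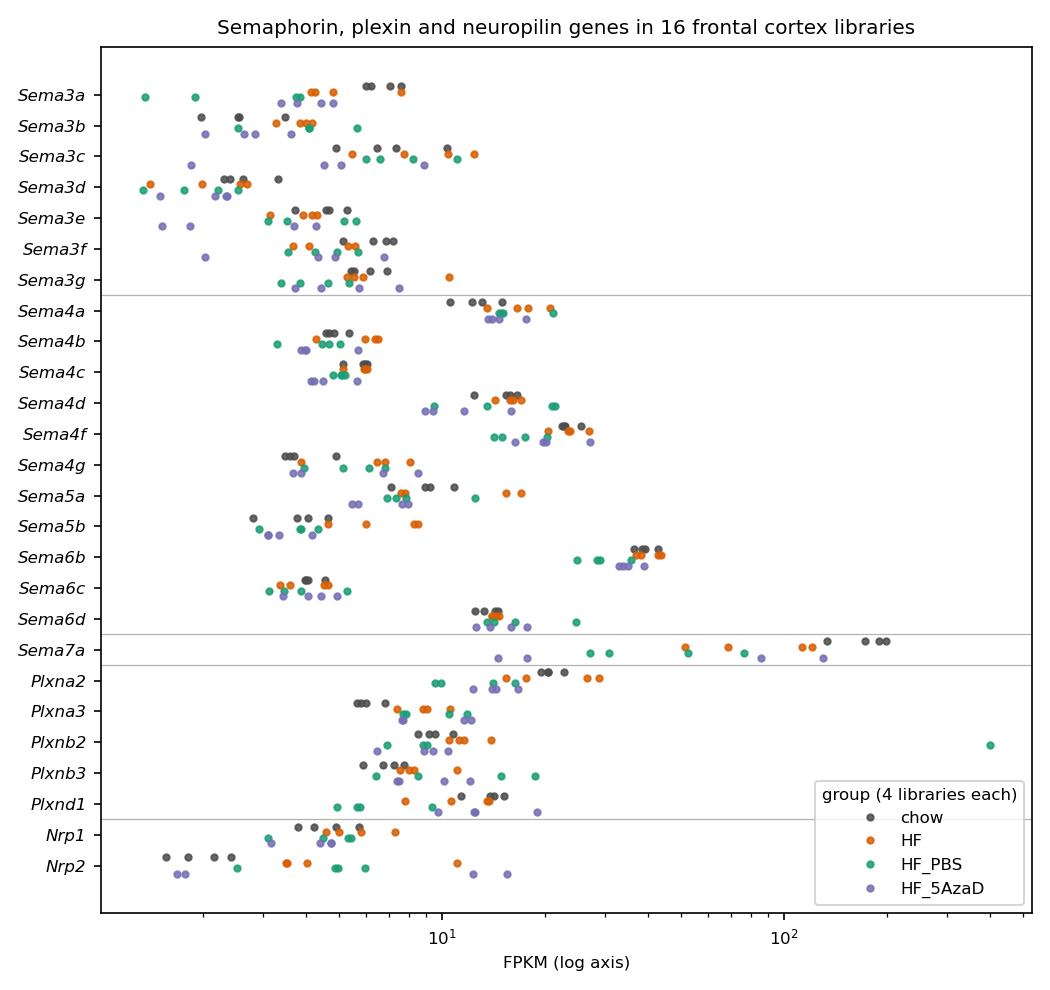
FPKM (log axis) of the 26 members in each of 16 libraries, with 4 points per group; grey lines part secreted, transmembrane and lipid-anchored semaphorins, plexins and neuropilins. Sema7a spans 14.6 to 199 FPKM, and the single point of Plxnb2 at 400 FPKM is the library HF_PBS 3.

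The libraries differed in more than the stated treatments. The cortical excitatory neuron markers, with 6 of 6 tested, summed to 1564 to 3171 FPKM in uninjected and 558 to 1744 in injected libraries, with the lowest sum in HF_PBS 3. Their score, the mean log2 deviation from the mean over 16 libraries, weighs each marker alike. It was 0.35 to 0.50 in chow, -0.26 to 0.71 in HF, -1.58 to 0.38 in HF_PBS and -1.06 to 0.38 in HF_5AzaD. The 12 oligodendrocyte markers summed to 12941 and 13891 in HF_PBS 3 and 4, against 2394 to 7321 in the other libraries. The 11 striatal markers in the table summed to 1382 in HF 8 and 758, 820 and 1039 in HF_PBS 2, 3 and 4, against 220 to 402 elsewhere, and the 5 choroid plexus markers never passed 38.5. In bulk tissue, fewer cells of a type and less RNA per cell cannot be told apart. Absolute depth is unknown; from the steps between low values, relative depth was 38.6% to 126% of chow 2 in chow, 30.1% to 36.4% in HF, 21.3% to 36.7% in HF_PBS and 34.7% to 44.5% in HF_5AzaD, and the estimates for chow 1 and HF_PBS 1 may be off by a factor of 2.

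Set against uninjected libraries (chow and HF, n = 8), injected libraries (HF_PBS and HF_5AzaD, n = 8) had less RNA of 8 members and more of 1. Sema3a, Sema4c, Sema4f, Sema5b, Sema6b, Sema7a, Plxna2 and Plxnd1 fell, and Plxna3 rose. By role, 1 of 7 secreted semaphorins fell, as did 4 of 11 transmembrane ones, the lipid-anchored Sema7a and 2 of 5 plexins, while neither neuropilin was called. The share called, 9 of 26 members or 34.6%, lies near the 40.8% of all 14824 tested loci called in the same comparison by limma at an adjusted p under 0.05. By direction, 1 member was higher and 8 were lower, against 19.7% and 21.0% of all loci, which is a description with no test. No member lay fully apart between injected and uninjected libraries, as 7.97% of all loci did. The median log2 difference was -0.24 over the members and 0.02 over all loci. Injections, any processing that followed them and the neuron marker level above cannot be told apart in this comparison, and the uninjected side mixes both diets.

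**Figure D2:**
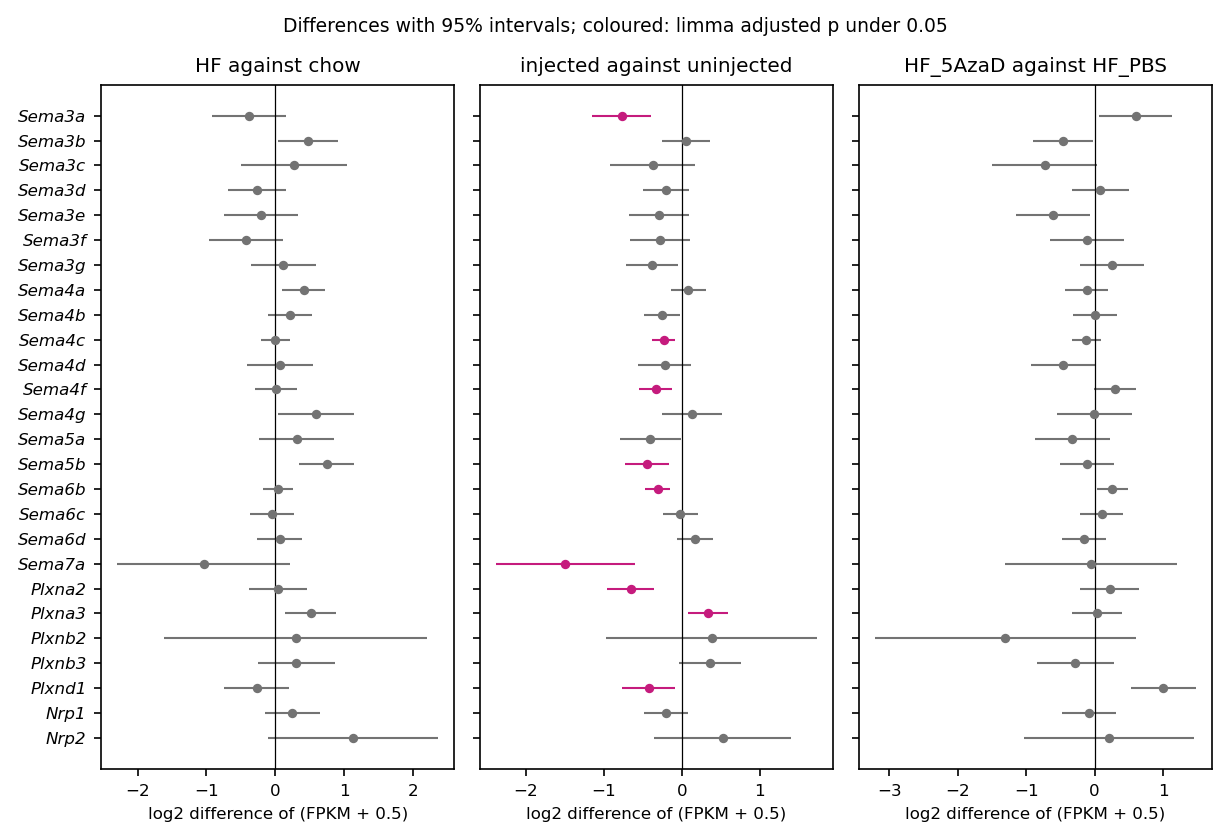
Log2 difference of FPKM + 0.5 with its 95% interval for the 26 members in 3 comparisons; coloured points passed limma at an adjusted p under 0.05. All 9 coloured points lie in the middle panel, 8 below 0 and Plxna3 above it.

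Sema7a promotes axon growth through integrins and binds plexin C1, whose gene is not among the members. Its values spanned 14.6 to 199 FPKM. It was at 199, 173, 189 and 133 FPKM in chow 1 to 4 and at 68.5, 121, 113 and 51.2 in HF 5 to 8. In HF_PBS 1 to 4 it was at 76.5, 52.4, 27.1 and 30.9, and in HF_5AzaD 3, 5, 6 and 7 at 86.0, 14.6, 130.0 and 17.7. Every other library lay below every chow library, and 4 of 8 injected libraries lay below the lowest uninjected one. The log2 difference of injected against uninjected libraries was -1.49 (SE 0.416, adjusted p = 0.0113), a 2.82-fold lower value of FPKM + 0.5. Against chow it fell in HF_PBS (-1.99, adjusted p = 0.0229) and in HF_5AzaD (-2.04, adjusted p = 0.0340). Uninjected HF differed from chow by -1.04, which did not pass (adjusted p = 0.735). Against HF, on the same diet, neither injected group passed. Those differences were -0.95 in HF_PBS (adjusted p = 0.252) and -0.996 in HF_5AzaD (adjusted p = 0.257). Without HF_PBS 3 and 4, the injected against uninjected difference was -1.21 and no longer passed (adjusted p = 0.0701).

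Among the secreted cues, Sema3a, the repellent that acts through Nrp1 and A plexins and is held in perineuronal nets, was the member that fell. Its values were 7.61, 7.07, 6.21 and 5.996 FPKM in chow, 4.15, 7.58, 4.26 and 4.80 in HF, 3.75, 3.86, 1.35 and 1.90 in HF_PBS, and 3.76, 3.40, 4.44 and 4.81 in HF_5AzaD. All 4 HF_PBS libraries lay below every uninjected one, with 3 and 4 lowest. The difference of injected against uninjected libraries was -0.77 (SE 0.178, adjusted p = 0.00405). HF_PBS lay lower than HF by 1.84-fold (log2 -0.88, adjusted p = 0.0226) and lower than chow by 2.39-fold (log2 -1.25, adjusted p = 0.00474). Without HF_PBS 3 and 4 neither passed, at -0.37 (adjusted p = 0.308) and -0.74 (adjusted p = 0.0752).

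The other secreted semaphorins passed the test in no comparison. Sema3c, which can act through either neuropilin, ranged from 1.85 in HF_5AzaD 7 to 12.4 in HF 5. For Sema3g, found in vessels, 5 of 8 injected libraries lay below the lowest uninjected one (injected median 4.54, uninjected 5.71, adjusted p = 0.0649). The remaining members of the class, Sema3b, Sema3d, Sema3e and Sema3f, had injected medians of 3.23, 2.20, 3.62 and 4.62 FPKM and uninjected medians of 3.37, 2.49, 4.25 and 5.44.

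Of the transmembrane semaphorins, Sema6b was at 36.5, 38.4, 39.3 and 42.9 FPKM in chow and at 43.9, 43.0, 37.0 and 38.2 in HF. It was at 35.7, 29.1, 24.8 and 28.4 in HF_PBS and at 34.9, 38.9, 33.1 and 33.8 in HF_5AzaD. Of the 8 injected libraries, 7 lay below the lowest uninjected one, the exception being HF_5AzaD 5. The difference was -0.31 (SE 0.0735, adjusted p = 0.00470). Sema4f, a class 4 semaphorin found at glutamatergic synapses, was at 22.4, 22.9, 22.8 and 25.5 in chow, 26.9, 23.4, 20.4 and 23.7 in HF, 20.4, 17.5, 14.2 and 15.0 in HF_PBS, and 19.8, 27.2, 20.1 and 16.4 in HF_5AzaD. Again 7 of 8 injected libraries lay below the lowest uninjected one, and HF_5AzaD 5 was the highest of all 16. Its difference was -0.34 (SE 0.1004, adjusted p = 0.0162), and -0.25 without HF_PBS 3 and 4 (adjusted p = 0.0979).

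Sema5b, a class 5 semaphorin known to repel axons and to act on synapse number, stood out by its HF values. It was at 8.28, 6.01, 4.66 and 8.51 FPKM in HF, against 2.81, 3.78, 4.06 and 4.66 in chow, 4.35, 2.92, 3.85 and 3.88 in HF_PBS and 3.101, 3.34, 4.19 and 3.11 in HF_5AzaD. No injected library reached the lowest HF library, and chow and injected libraries overlapped. The limma difference of injected against uninjected libraries was -0.45 (SE 0.131, adjusted p = 0.0148). Against chow alone it was -0.02 in HF_PBS (adjusted p = 0.949) and -0.13 in HF_5AzaD (adjusted p = 0.651), so the fall is from the HF values. Sema5b was lower in HF_PBS than in HF (log2 -0.77, adjusted p = 0.0109) and lower in HF_5AzaD than in HF (log2 -0.88, SE 0.186, adjusted p = 0.0130), where it was the single member called. These comparisons share the HF libraries. Sema4c, a ligand of plexin B2, was at 5.14, 6.06, 5.96 and 5.87 FPKM in chow, 5.95, 5.15, 5.93 and 6.04 in HF, 5.10, 4.82, 5.21 and 5.06 in HF_PBS, and 4.14, 4.24, 5.66 and 4.50 in HF_5AzaD. Of the injected libraries, 6 of 8 lay below the lowest uninjected one. Its log2 difference was -0.23 (SE 0.0690, adjusted p = 0.0153).

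For the other transmembrane members no comparison passed the test. Sema6d, a class 6 semaphorin, was at 12.5 to 17.8 FPKM in 15 libraries and at 24.6 in HF_PBS 3. Sema4d was highest in HF_PBS 3 and 4, at 21.4 and 20.9, against 8.95 to 17.0 in the others. Sema5a, which binds Plxnb3 and A plexins, reached 17.1 and 15.4 in HF 5 and 6 and lay between 5.48 and 12.5 elsewhere. Sema4a, Sema4b, Sema4g and Sema6c had means over all libraries of 15.3, 4.85, 5.36 and 4.09 FPKM.

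Of the plexins, Plxna2, a receptor for class 6 and, with neuropilins, class 3 semaphorins, had the lowest p of any member in injected against uninjected libraries. It was at 19.5, 20.5, 20.4 and 22.7 FPKM in chow, 17.6, 28.8, 15.4 and 26.6 in HF, 14.2, 16.4, 9.58 and 9.95 in HF_PBS, and 14.0, 16.7, 14.4 and 12.4 in HF_5AzaD. No injected library reached the lowest chow library, and 6 of 8 lay below the lowest uninjected library, HF 7. Injected libraries lay 1.57-fold lower (log2 -0.65, SE 0.141, adjusted p = 0.00270), and -0.50 without HF_PBS 3 and 4 (adjusted p = 0.0193). Plxna3, which with Nrp2 carries Sema3F signals, went the other way, at 6.01, 5.82, 5.66 and 6.82 in chow, 10.6, 7.40, 9.04 and 8.80 in HF, 7.69, 7.87, 10.5 and 11.8 in HF_PBS, and 7.66, 12.2, 7.71 and 11.6 in HF_5AzaD. All 12 libraries on the high fat diet lay above every chow library. Plxna3 was higher than in chow in HF_PBS (log2 0.58, adjusted p = 0.0229) and in HF_5AzaD (0.62, adjusted p = 0.0301), and had a difference of 0.52 in HF that did not pass (adjusted p = 0.682). These 3 comparisons share the chow libraries. Against HF, on the same diet, Plxna3 differed by 0.07 in HF_PBS (adjusted p = 0.808) and by 0.10 in HF_5AzaD (adjusted p = 0.719). In injected against uninjected libraries Plxna3 had a difference of 0.34 (adjusted p = 0.0364), and this call was lost in 9 of the 16 fits that leave out 1 library, and without HF_PBS 3 and 4 (0.22, adjusted p = 0.196).

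Plxnd1, a receptor of vessels and of some neurons, was at 15.2, 14.2, 13.8 and 11.4 FPKM in chow, 7.82, 13.6, 13.7 and 10.6 in HF, 5.66, 9.39, 4.94 and 5.75 in HF_PBS, and 9.75, 12.5, 12.4 and 19.0 in HF_5AzaD. All HF_PBS libraries lay below every chow library and every HF_5AzaD library. The highest Plxnd1 value of each injected group was in the library where the 8 markers of mural and leptomeningeal cells summed highest, at 430 FPKM in HF_PBS 2 and 449 in HF_5AzaD 7, against 98.3 to 238 in the other 14 libraries. Within groups Plxnd1 correlated with that marker score at r = 0.818 (permutation p = 0.00122, adjusted 0.0809; rho = 0.753, permutation p = 0.00218, adjusted 0.123), and at 0.628 without these 2 libraries. The part of these cells in the Plxnd1 values was not tested. It was lower in HF_PBS than in chow (log2 -1.06, SE 0.223, adjusted p = 0.00557) and than in HF (-0.79, adjusted p = 0.0213). Over both injected groups the difference was -0.42 (adjusted p = 0.0442), while HF_5AzaD alone differed from chow by -0.06 (adjusted p = 0.876). The call over both groups was lost in 12 of the 16 fits that leave out 1 library. Without HF_PBS 3 and 4 the differences from chow and HF were -0.85 (adjusted p = 0.0998) and -0.58 (adjusted p = 0.223).

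**Figure D3:**
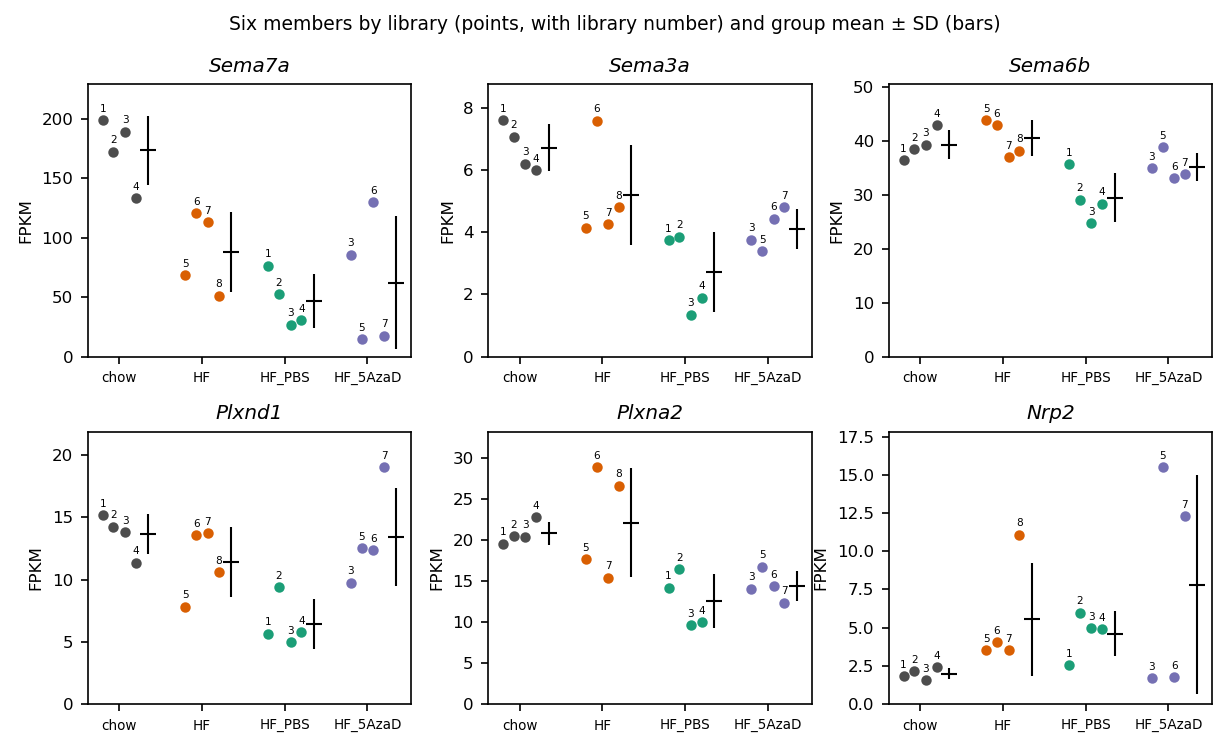
FPKM by library, with library numbers, and group mean ± SD (n = 4) for Sema7a, Sema3a, Sema6b, Plxnd1, Plxna2 and Nrp2. HF_PBS 3 and 4 are the lowest HF_PBS libraries of Sema7a, Sema3a, Sema6b and Plxna2, and Nrp2 is highest in HF 8, HF_5AzaD 5 and HF_5AzaD 7.

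Plxnb2, a receptor of class 4 semaphorins, was at 400 FPKM in HF_PBS 3 and between 6.46 and 13.9 in the other 15 libraries. Reads of Mir349 in the shared locus cannot be told from those of Plxnb2. With that library it passed in no comparison; without it Plxnb2 was lower in HF_PBS than in HF (log2 -0.49, adjusted p = 0.0401) and in injected than in uninjected libraries (-0.31, adjusted p = 0.0327). Plxnb3, the plexin of oligodendrocytes, was at 18.8 and 14.9 in HF_PBS 3 and 4 and at 5.90 to 12.1 elsewhere, and was not called. The neuropilins were not called either: Nrp1 was at 3.099 to 7.31 FPKM in all 16 libraries. Nrp2 ranged more widely, from 1.56 to 15.5, so that its difference of HF against chow, 1.13, had a 95% interval of -0.11 to 2.37.

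The question of the diet alone is addressed by HF against chow. Limma called 0 of 26 members and 0% of all loci, with 5 members and 6.88% of all loci at an unadjusted p under 0.05. The lowest p belonged to Sema5b (log2 0.75, SE 0.186), Plxna3 (0.52, SE 0.171) and Sema4a (0.41, SE 0.149), each with an adjusted p of 0.682. Plxna3 and Nrp2 lay higher and Sema7a lower in every HF library than in any chow library, 3 of 26 members against 6.95% of all loci. Sema4a was at 10.6, 13.1, 12.3 and 15.0 FPKM in chow and 20.7, 17.8, 13.6 and 16.6 in HF, which overlap in HF 7. For several members the interval leaves room for sizeable differences, as for Sema7a, at -1.04 with a 95% interval of -2.30 to 0.22. Relative depth, as estimated above, was 38.6% to 126% in chow and 30.1% to 36.4% in HF. As 2 ways of reading it differed by about a factor of 2 in several libraries, a full separation is not certain. The part of depth in these values was not tested.

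What the drug added to its vehicle is addressed by HF_5AzaD against HF_PBS. Limma called 0 of 26 members and 0% of all loci, and 5 members and 7.42% of all loci had an unadjusted p under 0.05. Plxnd1 came first, at 13.4 ± 3.95 FPKM against 6.43 ± 2.00, a log2 difference of 1.00 (SE 0.223, adjusted p = 0.586), and was the single member whose groups did not overlap, against 2.40% of all loci. Beside it, 7 of 7 tested mural and leptomeningeal markers (median log2 difference 0.44) and 8 of 9 endothelial markers (median 0.25) had positive differences, of which limma called 0, and their part was not tested. Sema6b (0.26, SE 0.104, adjusted p = 0.619) and Sema3a (0.60, SE 0.252, adjusted p = 0.635) followed. HF_PBS 3 and 4 bear on these values: without them the differences were 0.79 for Plxnd1, 0.12 for Sema6b and 0.08 for Sema3a. Sema3e, the ligand of plexin D1, was at 5.62, 3.11, 3.53 and 5.18 in HF_PBS and 3.70, 1.52, 4.29 and 1.84 in HF_5AzaD, which differed by -0.60 (adjusted p = 0.635).

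HF_PBS against HF sets vehicle injections against none on the high fat diet. Injections, any processing that followed them and the marker levels given above cannot be told apart in it. Limma called 6 of 26 members, or 23.1%, all lower (Sema3a, Sema4f, Sema5b, Sema6b, Plxna2 and Plxnd1), against 23.9% of all loci in both directions and 13.2% lower. Groups did not overlap for 4 members, against 21.2% of all loci. For HF_5AzaD against HF it was 1 member, Sema5b, or 3.85%, against 14.2% of all loci, with 7.64% lower, and 2 members lay apart, against 17.7%. Against chow, HF_PBS had 6 members lower and Plxna3 higher, 26.9% against 28.2% of all loci (12.4% higher and 15.7% lower), and HF_5AzaD had Sema7a lower and Plxna3 higher, 7.69% against 16.3% (7.18% higher and 9.11% lower). Groups did not overlap for 9 members in HF_PBS against chow, where 33.3% of all loci lay apart, and for 4 in HF_5AzaD against chow, where 27.2% did. Both calls of HF_5AzaD against chow were lost when any 1 of the 4 chow libraries, HF_5AzaD 5 or HF_5AzaD 7 was left out. Without HF_PBS 3 and 4, no member was called in HF_PBS against HF or against chow, where limma then called 320 and 101 loci. HF_PBS 3 and 4 also hold the highest oligodendrocyte marker sums. With that marker score as a covariate, 1 member passed in HF_PBS against HF and 2 against chow. The counts for HF_5AzaD went from 1 to 4 against HF and from 2 to 6 against chow. Shares of all loci called with this covariate are not given here, so these counts are no result about the members.

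Some members followed cell type markers from library to library. After group means were removed, correlations over 16 libraries were computed for 663 relations, 325 between members and 338 between a member and a marker score, with libraries permuted within groups 100000 times. By Pearson's r, 5 passed at an adjusted p under 0.05; by Spearman's rho none did, each of the 5 having an adjusted p of 0.0983. Plxnb3 rose with the oligodendrocyte score (r = 0.918, permutation p = 0.00028, adjusted 0.0438, and rho = 0.926, permutation p = 0.0006). The 2 libraries left out, here and below, lay farthest from the median after group means were removed. For Plxnb3 these were HF_PBS 2 and HF_5AzaD 6, and r was 0.886 without them. HF_PBS 3 and 4, with the highest scores, stayed in. Sema3g rose with the endothelial score (r = 0.889, permutation p = 0.00012, adjusted 0.0398; rho = 0.862, permutation p = 0.0005; 0.837 without 2 libraries) and with the score of 4 thalamic markers (r = 0.863, permutation p = 8e-05, adjusted 0.0398; rho = 0.853, permutation p = 0.00023; 0.825 without 2 libraries). Sema3d fell with the striatum score (r = -0.794, permutation p = 0.00033, adjusted 0.0438; rho = -0.806, permutation p = 0.00038; -0.691 without 2 libraries). Sema4f and Sema6b rose together (r = 0.808, permutation p = 0.00024, adjusted 0.0438; rho = 0.809, permutation p = 0.00083; 0.755 without 2 libraries).

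**Figure D4:**
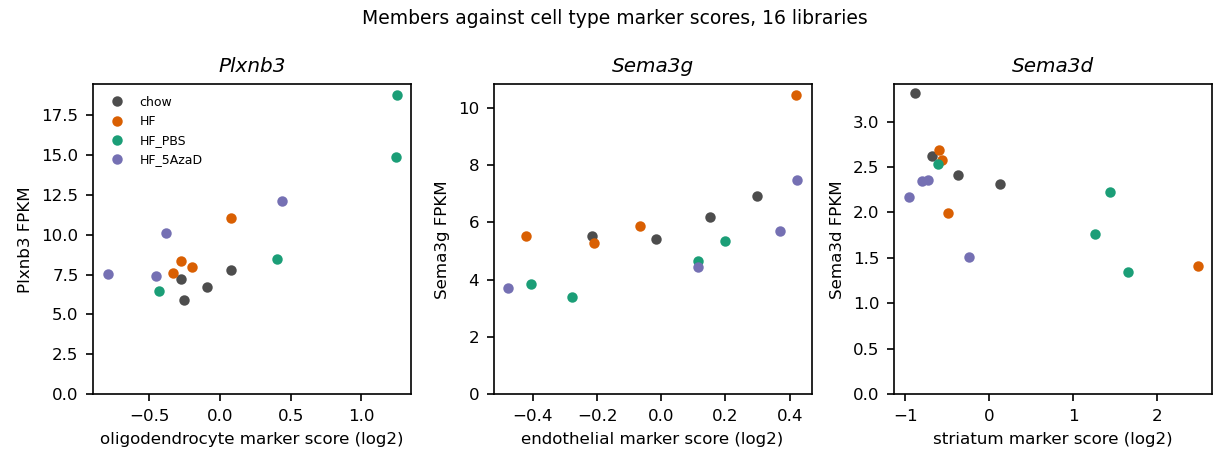
FPKM of Plxnb3, Sema3g and Sema3d against the oligodendrocyte, endothelial and striatum marker scores (mean log2 deviation of the markers from their mean over 16 libraries). The highest oligodendrocyte scores and the highest Plxnb3 values, 18.8 and 14.9 FPKM, are those of HF_PBS 3 and 4.

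The rest of the pathway was followed through lists of genes. Of 33 tested plexin effectors, 5 rose and 11 fell in injected against uninjected libraries, with a median log2 difference of -0.11, where 19.7% of all loci rose and 21.0% fell. The falls with the lowest p were Cdk5r1, the activator of the kinase Cdk5 (78.2 to 40.8 FPKM, log2 -0.92, adjusted p = 0.000313), the GTPase-activating gene Arhgap35 (26.5 to 17.0, -0.62) and Arhgef11, an exchange factor that binds B plexins (19.4 to 14.5, -0.40). The rises were led by the GTPase genes Rap1a (15.7 to 21.8, 0.44) and Rnd2 (109 to 179, 0.65) and the kinase gene Rock1 (8.34 to 10.8, 0.40). Of 9 partners of the receptors, the adhesion genes Nrcam (63.0 to 38.8, -0.78) and Cntn2 (22.9 to 16.1, -0.58) fell. The microglial genes Tyrobp (14.5 to 26.5, 0.80) and Trem2 (8.31 to 11.99, 0.47) rose, and 4 of 9 tested microglia markers rose beside them, against 19.7% of all loci.

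Over all loci, 40.8% were called in injected against uninjected libraries, 19.7% higher and 21.0% lower, with a median of 0.02. Of 37 tested genes of other guidance families, 14 fell and 0 rose, with a median of -0.35. Their score (mean log2 deviation from the mean over 16 libraries) was -0.37, -0.39 and -0.36 in HF_PBS 3, HF_PBS 4 and HF_5AzaD 7, against -0.13 to -0.01 in the other 5 injected libraries and 0.06 to 0.45 in the uninjected ones. Dscam (9.19 to 5.79 FPKM, -0.62), the ephrin receptor gene Ephb2 (3.37 to 1.47, -1.02) and Flrt1 (8.09 to 5.37, -0.57) had the lowest p, with adjusted p of 0.00139, 0.00184 and 0.00194. In perineuronal nets, the matrix that holds Sema3A, the proteoglycan gene Bcan fell (87.7 to 59.1, -0.58), and Ptprz1 (39.4 to 60.7, 0.57) and Vcan (4.05 to 5.19, 0.31) rose among 6 tested genes, so that 3 of 6 were called, against 40.8% of all loci. Beside these, the excitatory neuron markers Camk2a (1576 to 858, -0.91, adjusted p = 0.00202) and Tbr1 (47.1 to 27.9, -0.91, adjusted p = 0.0291) fell, and all 6 markers had negative differences, with a median of -0.76. Their part in the changes of the pathway was not tested. For diet alone and for drug against vehicle, limma called 0 genes of these 4 lists.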

How the data were processed

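Per the labels, poly-A RNA from rat frontal cortex was sequenced on an Illumina HiSeq. The deposited table gives the authors' FPKM for every merged locus in each library, and a status beside it. Per the submitters' processing notes, TopHat, TopHat2, Bowtie, Bowtie2, Cufflinks and Cuffdiff were used with rat build rn5; versions, roles and strand are not given in the sources used here. Of 28168 loci, 161 not marked OK throughout were left out, and 14824 with a mean of at least 1 FPKM were tested. The table held 0 columns from outside this series.

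Values were fitted with limma 3.58.1 in R 4.3.3 on log2(FPKM + 0.5), fitting each group's mean to the 16 libraries, with 12 residual degrees of freedom, a trended prior and 7 comparisons. Benjamini-Hochberg adjustment covered every tested locus, and adjusted p under 0.05 was called. Fold changes are on the scale of FPKM + 0.5, which understates changes of low genes. The fit was also run on simulated data with independent normal noise. Such noise lacks shifts shared across genes and outlying libraries, so that run does not vouch for the calls here. Relative depth was read from the steps between values of loci with a mean under 0.3 FPKM; another way of reading those steps, tried first, differed by about a factor of 2 in several libraries, so depth is approximate. Correlations used numpy 2.4.6 in Python 3.11.15, and plots matplotlib 3.10.9.

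Members and lists were chosen with earlier results of these data known. Full values are given for members called in any comparison and for the 3 with the lowest p in HF against chow and HF_5AzaD against HF_PBS. The 3 called list genes with the lowest p per direction are named. Plxnb2, Plxnb3, Nrp2, Sema3c, Sema3e, Sema3g, Sema4d, Sema5a, Sema6d and the markers Camk2a and Tbr1 were picked for fuller values after these were seen. Of the marker lists, 13 cell types were scored.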

Additional observations from a re-analysis of the deposited data

Results flagged for a closer look

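A library far from the others of its group was looked for in the 104 sets of 4 libraries (26 members in 4 groups), by a gap to the nearest library above Dixon's 95% critical value for its share of the range. It was found in 10 sets; chance gives about 5% of sets. Plxnb2 in HF_PBS 3, at 399.8 FPKM against 6.90 to 9.04 in the other HF_PBS libraries, had the widest gap. Nrp2 stood at 11.1 in HF 8 against 3.51 to 4.03, and Sema3g at 10.5 in HF 7 against 5.28 to 5.88. HF_PBS held 2 more, Sema4a at 21.1 in library 3 (others 14.7 to 15.1) and Sema5a at 12.5 in library 1 (others 6.92 to 7.88). Sema4b was at 5.68 in HF_5AzaD 5 against 3.87 to 4.01, and Sema4c at 5.15, below the others, in HF 6 (5.93 to 6.04). In chow, library 4 was the highest for Sema4f (25.5, others 22.4 to 22.9), Sema4g (4.90, others 3.49 to 3.70) and Sema6c (4.56, others 3.99 to 4.07).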

How the results depend on the processing

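None of the 797 alternative values of 31 named results changed direction, 688 stayed on their side of the threshold and 109 no longer passed it. The named results were chosen for a call or a low p, so a change of direction was unlikely. Those not called had no call to lose, and dropping a library outside the compared groups leaves a difference unchanged. The counts for HF against chow and HF_5AzaD against HF_PBS stayed 0 under all alternatives run. Injected against uninjected gave 7 to 10 members (9 as reported) with 1 library left out at a time, and 7 without HF_PBS 3 and 4, a choice made after seeing the data, where Sema7a, Sema4f, Plxnd1 and Plxna3 were lost and 5 of the 9 were kept. Leaving out 1 library lost the call of Plxnd1 in 12 of 16 cases and of Plxna3 in 9. HF_PBS against chow (7 as reported) gave 3 to 9 members with 1 library left out (3 without HF_PBS 4, 4 without HF_PBS 3), 2 with the oligodendrocyte score and 2 with the striatum score as a covariate, and 0 without HF_PBS 3 and 4. HF_PBS against HF (6) gave 2 to 6 (2 without HF 6 and 2 without HF_PBS 4), 1 when fitted on its own groups, 1 with the oligodendrocyte score and 0 without HF_PBS 3 and 4. HF_5AzaD against chow (2) gave 0 to 5 (0 without any 1 chow library, HF_5AzaD 5 or HF_5AzaD 7, and 5 without HF_5AzaD 6), 1 with no filter on low values and 6 with the oligodendrocyte score. HF_5AzaD against HF (1) gave 1 to 3 (3 without HF 7, and 2 without HF 5 or HF_5AzaD 3, 5 or 6), 0 with a minimum mean of 5 FPKM, 0 when fitted on its own groups, 4 with the oligodendrocyte score, 2 with the striatum score and 2 without HF_PBS 3 and 4. The cause of these moves was not tested. Shares of all loci called are not given for these fits, so the moves are no result about the members. Same-numbered libraries showed no sign of pairing: their deviations from group means correlated at -0.164 to 0.0236 for chow and HF_PBS and at -0.107 to 0.0641 for HF and HF_5AzaD, and 0 of 4 and 0 of 3 correlated best with their own number. With the replicate block, HF_PBS against chow gave 6 members and HF_5AzaD against HF 0. Fits on the compared groups alone have no value for injected against uninjected, which uses all groups. Absolute depth is unknown, so no precision from counting can be given for low members such as Sema3d.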

Other observations

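The 4 HF_5AzaD libraries fell into pairs for several members, which the labels do not name. Nrp2 was at 15.5 and 12.3 FPKM in HF_5AzaD 5 and 7 and at 1.68 and 1.77 in 3 and 6. Plxna3 was at 12.2 and 11.6 against 7.66 and 7.71, and Sema4g at 8.54 and 6.72 against 3.89 and 3.68. In the opposite sense, Sema7a was at 14.6 and 17.7 against 86.0 and 130.0, and Sema3e at 1.52 and 1.84 against 3.70 and 4.29. The excitatory neuron marker score was -0.87 and -1.06 in libraries 5 and 7 and 0.38 and 0.12 in 3 and 6. The summed FPKM of the same markers did not part this way, at 1744 and 1343 in 5 and 7 and 1669 and 1641 in 3 and 6. The members named here were picked after their values were seen, no test was made of the pairs, and the part of the marker level was not tested.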
